A study of Bos taurus with 24 samples.

Results

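The genes described here are 9 enzymes of serine synthesis and folate-dependent one-carbon metabolism, taken by name: PHGDH, PSAT1, PSPH, SHMT1, SHMT2, MTHFD1, MTHFD2 and MTHFD1L, together with the asparagine synthetase ASNS. All 9 were found among the 24997 transcript clusters that were tested, which carry 18444 distinct gene symbols. Each of the 9 is represented by 1 cluster, so the brightest row of a gene was also its only row. They were measured in subcutaneous adipose tissue of 12 crossbred beef cows on Affymetrix Bovine 1.1ST arrays, with 1 array for each biopsy and 24 arrays in all. The cows were 5 years old, had weaned their calves and were not pregnant. Feed was first held at 120 kcal of metabolizable energy per kg of metabolic body weight for 112 days, and the first biopsy was taken on day 105. The same ration was then offered without limit, and the second biopsy was taken on day 49 of that period. The 6 cows that gained most and the 6 that gained least while fed ad libitum, out of 121 cows, form the high gain group (H1 to H6) and the low gain group (L1 to L6). This gives 4 groups of 6 arrays, which are high gain and low gain at restriction and high gain and low gain at ad libitum feeding. Gain was measured after the first biopsy, and the high gain cows also ate more. Restriction samples came from the left side and ad libitum samples from the right, so diet, side, day and period cannot be told apart.

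Serine is made from the glycolytic intermediate 3-phosphoglycerate in 3 successive reactions, and serine hydroxymethyltransferase then passes its side-chain carbon to tetrahydrofolate and leaves glycine. The folate-bound carbon is carried between oxidation states by the MTHFD enzymes, in the mitochondria and in the cytosol, and is used to build purines and thymidylate and to remethylate homocysteine. In mammalian cells several of these genes, and ASNS, are known targets of the transcription factor ATF4. In adipose tissue the cytosolic MTHFD1 reactions also turn over NADPH, the reductant of fatty acid synthesis.

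All values are log2 signals as deposited, unless they are called centred. The median signal of the tested clusters was 8.26 to 8.34 on the 12 restriction arrays and 7.83 to 7.94 on the 12 ad libitum arrays. As a result the median cluster changed by -0.42 from restriction to ad libitum feeding in high gain cows and by -0.43 in low gain cows. The changes of the 9 enzymes between diets, and the counts over lists of other genes, are therefore given on the deposited scale and again after every array was shifted to the same median, which is the centred scale. Other single genes are given as deposited, with the centred result where the call differed. A lower signal on the deposited scale that is near the median change of all clusters is not a change relative to other genes. The adipocyte genes ADIPOQ, FABP4 and CIDEC reached 19.93, the upper end of the scale, whereas the highest value of any of the 9 enzymes was 13.01. In bulk tissue, fewer cells that express a gene and less RNA per cell cannot be told apart.

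Between restriction and ad libitum feeding most of the 9 enzymes moved upward against the general shift of the arrays. In the high gain cows PSPH, ASNS, MTHFD1 and PSAT1 rose and PHGDH fell on the deposited scale. In the low gain cows MTHFD1, ASNS, SHMT2 and SHMT1 rose and PHGDH fell. Thus 4 of 9 were higher in each gain group, at an adjusted p under 0.05 in limma, beside 7.36% of all clusters in high gain and 6.28% in low gain cows. In each gain group 1 of 9 was lower, beside 53.1% and 54.3% of all clusters. On the centred scale 7 of 9 were higher in each gain group, beside 18.8% and 18.6% of all clusters, and 0 of 9 were lower, beside 16.5% and 13.1%. The median change of the 9 enzymes was 0.26 in high gain and 0.38 in low gain cows on the deposited scale, and 0.68 and 0.83 on the centred scale. MTHFD1 and ASNS were the only members called higher in both gain groups on the deposited scale. On the centred scale PSAT1, PSPH, SHMT1 and SHMT2 joined them.

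**Figure D1:**
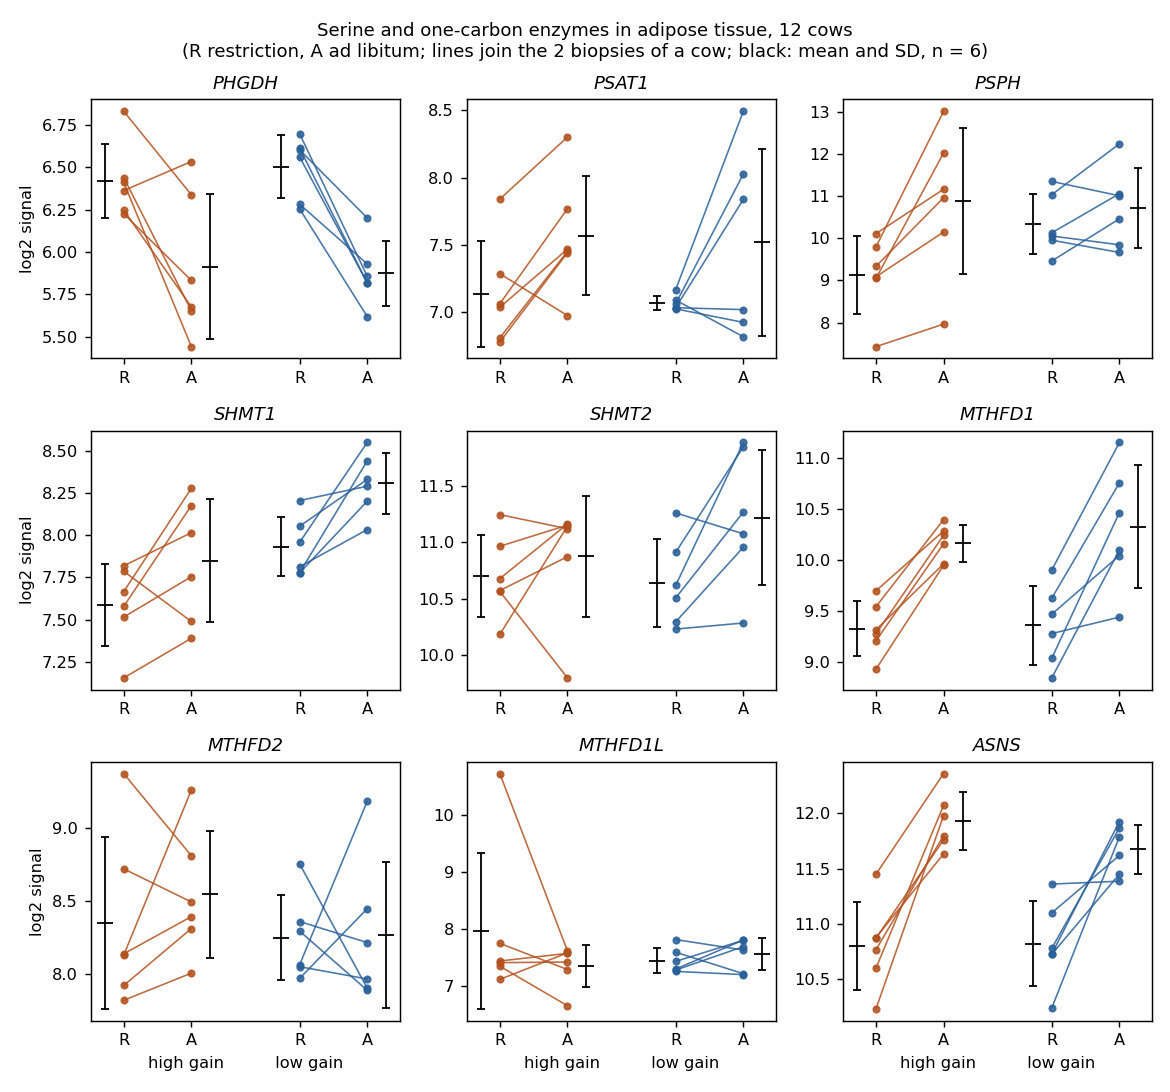
Deposited log2 signal of the 9 enzymes (vertical axes, a scale of its own in each panel) in the 6 high gain cows (orange) and the 6 low gain cows (blue) at restriction (R) and ad libitum feeding (A). A line joins the 2 biopsies of a cow, and black marks give the mean and SD of 6 arrays. ASNS and MTHFD1 climb in all 12 cows, PSPH spreads widely among high gain cows once fed ad libitum, and a single restriction array of cow H2 stands apart at 10.72 for MTHFD1L.

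PHGDH (transcript cluster 12843247), the dehydrogenase that oxidizes 3-phosphoglycerate and opens the pathway, was the one enzyme called lower on the deposited scale. Its signal in high gain cows was 6.23 to 6.83 at restriction (median 6.39) and 5.44 to 6.53 at ad libitum feeding (median 5.75). In the low gain cows it was 6.25 to 6.70 at restriction (median 6.58) and 5.62 to 6.20 at ad libitum feeding (median 5.84). The diets overlapped in high gain cows, where H6 alone went up, and did not overlap in low gain cows, where all 6 went down. The change was -0.51 ± 0.15 (SE, n = 6 cows, limma adjusted p = 0.0182) in high gain and -0.63 ± 0.12 (limma adjusted p = 0.00175) in low gain cows. Both values are close to the shift of the median cluster. On the centred scale PHGDH changed by -0.09 (95% interval -0.43 to 0.24, limma adjusted p = 0.652) and by -0.18 (limma adjusted p = 0.263), and 2 of 6 cows were higher in each group. The call in high gain cows was also lost without H4 (-0.41, limma adjusted p = 0.0554). PHGDH was dim, since its mean signal of 6.18 lay at the 11.3 percentile of all clusters, below the 25 percentile used as a filter on dim clusters. So for the first enzyme no change relative to the rest of the array was detectable.

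PSAT1 (cluster 12891041) is the aminotransferase of the second step, which draws its nitrogen from glutamate. High gain cows gave 6.78 to 7.84 at restriction (median 7.05) and 6.98 to 8.30 at ad libitum feeding (median 7.46). Low gain cows gave 7.03 to 7.17 at restriction (median 7.05) and 6.82 to 8.49 at ad libitum feeding (median 7.43). The restriction values of the low gain cows were nearly uniform, with an SD of 0.05, and their ad libitum values split, with L2, L3 and L6 up by 0.80, 0.96 and 1.32 and the other 3 cows down by 0.01 to 0.27. In the high gain cows 5 of 6 went up and H5 went down. The change was 0.43 ± 0.15 (limma adjusted p = 0.0323) in high gain cows, which was called, and 0.45 (95% interval -0.05 to 0.95, limma adjusted p = 0.103) in low gain cows, which was not. On the centred scale PSAT1 was higher in all 12 cows, by 0.85 (limma adjusted p = 0.00337) and by 0.90 (limma adjusted p = 0.0133). The deposited call in high gain cows was fragile. It was lost when the cow was left out of the model (limma adjusted p = 0.109) and when H1, H2, H3, H4 or H6 was left out, with values of 0.38 to 0.43 and limma adjusted p of 0.0617 to 0.0916, while it held without H5 at 0.58.

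PSPH (cluster 12817732), the phosphatase that releases free serine, had the widest spread of the 9. Its signal in high gain cows ran from 7.43 to 10.11 at restriction (median 9.21) and from 7.96 to 13.01 at ad libitum feeding (median 11.06). In the low gain cows it ran from 9.46 to 11.35 at restriction (median 10.09) and from 9.66 to 12.24 at ad libitum feeding (median 10.74). All 6 high gain cows went up, and their gains differed by cow, from 0.54 in H5 to 2.98 in H2 and 3.22 in H4. H5 was the lowest of high gain cows at both diets, so the groups overlapped although every pair ran the same way. The low gain cows were divided, with L2, L3 and L5 higher and L1, L4 and L6 lower at ad libitum feeding. The change was 1.75 ± 0.36, or 3.35-fold (limma adjusted p = 0.00337), in high gain cows, and 0.38 (95% interval -0.16 to 0.92, limma adjusted p = 0.191) in low gain cows. After centring the changes were 2.16 (limma adjusted p = 0.00225) and 0.83 (limma adjusted p = 0.026). The centred call in low gain cows was lost without L2, L3 or L5, at 0.67 to 0.73 with limma adjusted p of 0.0713 to 0.0789, and without the cow in the model (limma adjusted p = 0.148).

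SHMT1 (cluster 12762386) is the cytosolic serine hydroxymethyltransferase. It gave 7.16 to 7.82 at restriction (median 7.62) and 7.39 to 8.28 at ad libitum feeding (median 7.88) in high gain cows. It gave 7.78 to 8.21 at restriction (median 7.89) and 8.03 to 8.55 at ad libitum feeding (median 8.31) in low gain cows. Both gain groups overlapped between diets on the deposited scale, and on the centred scale neither did. All 6 low gain cows and 5 of 6 high gain cows went up, with H5 again the exception. The change was 0.26 (95% interval -0.05 to 0.57, limma adjusted p = 0.123) in high gain and 0.38 (limma adjusted p = 0.0211) in low gain cows. After centring it was 0.68 (limma adjusted p = 0.00626) and 0.83 (limma adjusted p = 0.00124), and higher in all 12 cows. The deposited call in low gain cows was lost without L3, L5 or L6, at 0.32 to 0.37 with limma adjusted p of 0.0513 to 0.0645, and without H5 the high gain cows passed at 0.38 (limma adjusted p = 0.0337).

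SHMT2 (cluster 12864912) is the mitochondrial form of the same enzyme. It ran from 10.18 to 11.25 at restriction (median 10.62) and from 9.80 to 11.16 at ad libitum feeding (median 11.13) in high gain cows. In the low gain cows it ran from 10.23 to 11.26 at restriction (median 10.56) and from 10.28 to 11.89 at ad libitum feeding (median 11.17). Among the high gain cows 5 of the ad libitum values lay close together and H5 stood well below them. The change was 0.17 (95% interval -0.29 to 0.64, limma adjusted p = 0.475) in high gain and 0.58 (limma adjusted p = 0.0252) in low gain cows, in which L4 alone went down. With the arrays centred the changes were 0.59 (limma adjusted p = 0.0484) and 1.03 (limma adjusted p = 0.00377). The centred call in high gain cows sat at the threshold and was lost without any of H1, H2, H3, H4 and H6, at 0.44 to 0.65 with limma adjusted p of 0.0639 to 0.13, and without the cow in the model (limma adjusted p = 0.0813). Without H5 it was 0.78 (limma adjusted p = 0.0118). In the low gain cows the deposited call was lost without the cow in the model (limma adjusted p = 0.0665) and without L2, L3, L5 or L6, at 0.45 to 0.57 with limma adjusted p of 0.0585 to 0.076, whereas the centred call held without each cow in turn.

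MTHFD1 (cluster 12690641), the trifunctional cytosolic enzyme that interconverts formate, formyl-, methenyl- and methylene-tetrahydrofolate, was among the steadiest. High gain cows gave 8.93 to 9.70 at restriction (median 9.29) and 9.95 to 10.39 at ad libitum feeding (median 10.20), and the 2 diets did not overlap. Low gain cows gave 8.84 to 9.90 at restriction (median 9.37) and 9.44 to 11.15 at ad libitum feeding (median 10.28), with an overlap. All 12 cows went up, by 0.59 to 1.02 in high gain and by 0.16 in L3 to 1.43 in L1 in the low gain group. The change was 0.84 ± 0.10, or 1.79-fold (limma adjusted p = 0.000392), and 0.97 ± 0.18 (limma adjusted p = 0.00171). The centred changes were 1.25 (limma adjusted p = 0.000119) and 1.42 (limma adjusted p = 0.000818), and neither gain group overlapped between diets. The call held without each cow in turn, with deposited changes of 0.80 to 0.89 in high gain and 0.87 to 1.13 in low gain cows.

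MTHFD2 (cluster 12706002) is the mitochondrial dehydrogenase and cyclohydrolase that is high in dividing cells. Its signal in high gain cows was 7.82 to 9.37 at restriction (median 8.14) and 8.01 to 9.26 at ad libitum feeding (median 8.45). In the low gain cows it was 7.97 to 8.76 at restriction (median 8.18) and 7.89 to 9.18 at ad libitum feeding (median 8.09). The diets overlapped almost fully, and cows went both ways in each gain group, 4 of 6 up in high gain and 2 of 6 up in the low gain group. The change was 0.20 (95% interval -0.26 to 0.65, limma adjusted p = 0.418) and 0.02 (95% interval -0.50 to 0.53, limma adjusted p = 0.949). On the centred scale the high gain cows were just called at 0.61 (limma adjusted p = 0.04) and the low gain cows were not at 0.47 (limma adjusted p = 0.138). That call was lost without H1, H3, H4 or H6, at 0.42 to 0.61 with limma adjusted p of 0.0806 to 0.0993, and without the cow in the model (limma adjusted p = 0.088).

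MTHFD1L (cluster 12896461), the mitochondrial formate-tetrahydrofolate ligase that sends formate out to the cytosol, was dominated by 1 array. Cow H2 read 10.72 at restriction, and the other 5 high gain cows read 7.12 to 7.75. At ad libitum feeding the high gain cows read 6.65 to 7.61 (median 7.50), with H5 lowest. The low gain cows read 7.26 to 7.81 at restriction (median 7.36) and 7.20 to 7.81 at ad libitum feeding (median 7.66). The change in high gain cows was -0.61 (95% interval -1.55 to 0.33, limma adjusted p = 0.227), and without H2 it was -0.11 (limma adjusted p = 0.623). On the centred scale it was -0.19 with H2 and 0.30 without (limma adjusted p = 0.735 and 0.229). The low gain change was 0.11 (95% interval -0.22 to 0.44, limma adjusted p = 0.522) on the deposited scale. It was called on the centred scale at 0.56 (limma adjusted p = 0.0189), with all 6 cows higher, and this was lost without L3 or L6 (0.51 and 0.49, limma adjusted p = 0.0562 and 0.0567).

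ASNS (cluster 12854099) makes asparagine from aspartate with glutamine as nitrogen donor, and shares the ATF4 response with the serine enzymes. It gave 10.23 to 11.45 at restriction (median 10.82) and 11.63 to 12.36 at ad libitum feeding (median 11.89) in high gain cows. It gave 10.24 to 11.36 at restriction (median 10.76) and 11.39 to 11.93 at ad libitum feeding (median 11.71) in low gain cows. The diets did not overlap in either gain group, and all 12 cows went up, by 0.76 to 1.75 in the high gain group and by 0.03 in L4 to 1.55 in L6 in the low gain group. The change was 1.13 ± 0.15, or 2.20-fold (limma adjusted p = 0.000497), and 0.85 ± 0.19 (limma adjusted p = 0.00441). Centred changes were 1.55 (limma adjusted p = 0.000167) and 1.30 (limma adjusted p = 0.00135). Leaving out each cow in turn kept the call, with deposited changes of 1.01 to 1.21 and 0.71 to 1.01.

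**Figure D2:**
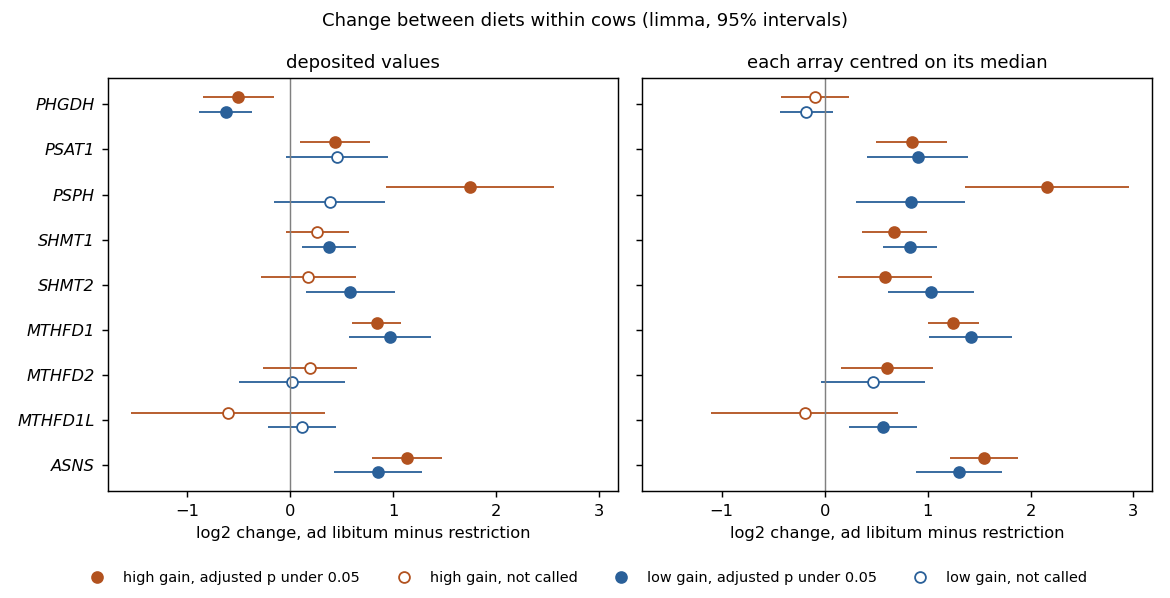
Change of each enzyme from restriction to ad libitum feeding within cows (horizontal axes, log2 ad libitum minus restriction) on the deposited scale (left) and with every array centred on its median (right), for high gain (orange) and low gain cows (blue). Points are limma estimates from 6 cows, bars are 95% intervals and filled points have an adjusted p under 0.05. Centring moves every point to the right by about the median shift, so that 7 of 9 enzymes are called higher in each gain group and PHGDH is called in neither.

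The gain groups were then compared with each other at each diet. At restriction 0 of 9 enzymes passed an adjusted p under 0.05 in limma, where 0% of all clusters did, and 2 of 9 had an unadjusted p under 0.05, as did 2292 of all clusters. These were PSPH, at 7.43 to 10.11 in high gain and 9.46 to 11.35 in low gain cows, with a difference (high minus low gain) of -1.20 (95% interval -2.10 to -0.30, limma adjusted p = 0.452), and SHMT1, with a difference of -0.34 (95% interval -0.62 to -0.06, limma adjusted p = 0.472). The groups overlapped for both. At ad libitum feeding 0 of 9 passed, where 0% of all clusters did, and SHMT1 alone had an unadjusted p under 0.05, beside 1777 of all clusters. Its difference was -0.46 (95% interval -0.80 to -0.11, limma adjusted p = 0.608). SHMT1 was thus lower on average in high gain cows at both diets, but these are the same animals, and neither difference passed the correction. PSPH at ad libitum feeding had an interval from -1.35 to 1.68, which leaves differences of more than a doubling in either direction. MTHFD1L at restriction, with the H2 array, had an interval from -0.54 to 1.57, which also leaves more than a doubling open. For ASNS the interval was -0.47 to 0.42 at restriction and -0.04 to 0.56 at ad libitum feeding. For MTHFD1 it was -0.42 to 0.36 and -0.66 to 0.34.

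The change between diets was tested for a difference between the gain groups in a fit of all 24 arrays. None of the 9 enzymes passed an adjusted p under 0.05 in limma, beside 0% of all clusters with a greater change and 0.008% with a smaller change in high gain cows. PSPH was the only member with an unadjusted p under 0.05, as 2347 of all clusters were. Its change was larger in high gain cows by 1.36 (95% interval 0.36 to 2.37, limma adjusted p = 0.406), and by 1.07 to 1.61 when each cow was left out in turn. The enzymes that were called in a single gain group on the deposited scale, PSAT1, PSPH, SHMT1 and SHMT2, are therefore not shown to respond differently. For SHMT2 the difference of changes was -0.41 (95% interval -1.04 to 0.23, limma adjusted p = 0.696), and for PSAT1 it was -0.02 (95% interval -0.63 to 0.59, limma adjusted p = 0.99). For ASNS it was 0.28 (95% interval -0.26 to 0.83) and for MTHFD1 -0.13 (95% interval -0.58 to 0.32).

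**Figure D3:**
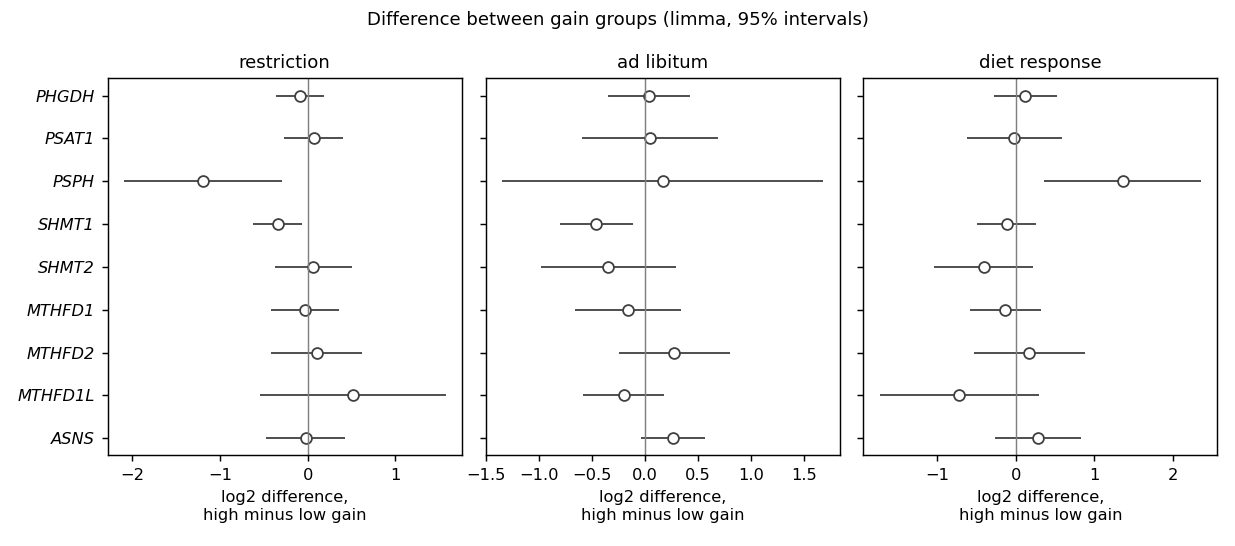
Differences of the 9 enzymes between high and low gain cows (horizontal axes, log2, high minus low gain, each panel with its own range) at restriction, at ad libitum feeding and in the change between diets. Points are limma estimates from 6 cows a group with 95% intervals, and all are open because none has an adjusted p under 0.05. PSPH at restriction and in the diet response, and SHMT1 at both diets, have intervals that leave out 0.

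The enzymes did not all vary together from cow to cow. Over the 24 centred arrays, which share the diet step, MTHFD1 and ASNS had a Pearson r of 0.80, but after the means of the 4 groups were removed it was 0.04. PSAT1 with ASNS gave 0.80 and kept 0.51 within groups, and SHMT2 with ASNS gave 0.74 and kept 0.59. PHGDH had an r of -0.41 to 0.07 against the 8 other members over all arrays, and of -0.47 to 0.37 within groups. The single-symbol clusters most like each of 5 members in these arrays were ATP5MC3, ATP5PO and GPI for ASNS (r = 0.97, 0.96 and 0.96), RHOT1, CAPN15 and ACSL5 for PSAT1 (r = 0.90, 0.89 and 0.88) and ATP5F1D, ENO1 and BUD23 for SHMT2 (r = 0.86, 0.85 and 0.85). For MTHFD2 they were TPBG, KDELR3 and BMP1 (r = 0.85, 0.82 and 0.82), and for PHGDH they were MFSD2B, ZDHHC16 and LOC784525 (r = 0.72, 0.71 and 0.68). Within groups the r of these 15 pairs was 0.66 to 0.86. These are descriptions over arrays that share cows and diet, picked as the highest of all clusters.

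The genes that feed the pathway or use its products were read from 9 lists. As deposited, 7.36% of all clusters rose and 53.1% fell in high gain cows, and 6.28% and 54.3% in low gain cows. With arrays centred, 18.8% rose and 16.5% fell in high gain cows, and 18.6% and 13.1% in low gain cows. The counts of called genes in each list are to be read beside these shares. Lower glycolysis supplies 3-phosphoglycerate, and 4 of its 7 measured genes rose in high gain and 3 in low gain cows on the deposited scale, while 2 fell in each, and on the centred scale 4 rose and 0 fell in each. PGK1, PGAM1 and ENO1, which lie just before and after the branch point, rose by 1.34, 1.63 and 1.64 in high gain and by 1.19, 1.19 and 1.44 in low gain cows (limma adjusted p = 0.000231 to 0.0012). Among 12 genes of glutamate, aspartate and asparagine metabolism, 8 rose and 2 fell in high gain cows and 7 rose and 2 fell in low gain cows (centred, 9 and 1, and 9 and 0). GPT2, the mitochondrial alanine aminotransferase, rose by 3.18 and 2.66, and the mitochondrial aspartate aminotransferase GOT2 rose by 1.34 and 0.93.

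The mitochondrial serine carrier SFXN1 fell in both gain groups on both scales. Its signal was 12.25 to 13.87 at restriction and 9.69 to 11.74 at ad libitum feeding in high gain cows, and 12.25 to 14.32 and 9.87 to 11.25 in low gain cows, so the diets did not overlap in either gain group. It fell by 1.95 (limma adjusted p = 0.000178) and fell by 2.70 (limma adjusted p = 0.000181), and on the centred scale it fell by 1.54 and fell by 2.25. Of the 15 genes of serine use and transport, 4 rose and 5 fell in high gain cows and 2 rose and 4 fell in low gain cows as deposited, whereas with arrays centred 5 rose and 1 fell, and 4 rose and 1 fell. PTDSS2, which exchanges serine into phosphatidylserine, rose by 0.64 and 0.89, and the serine racemase SRR fell by 0.75 and 0.70, but was not called on the centred scale (limma adjusted p = 0.0849 and 0.244).

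In the folate cycle outside the 9 enzymes, 0 of 13 genes rose and 5 fell in each gain group on the deposited scale, and on the centred scale 4 rose and 1 fell in high gain cows and 5 rose and 1 fell in low gain cows. The deposited falls stand beside 53.1% and 54.3% of all clusters lower. The folate transporters SLC46A1 and SLC19A1 fell by 1.20 and 0.59 in high gain and by 0.90 and 0.84 in low gain cows, and on the centred scale SLC46A1 was called in high gain cows alone (limma adjusted p = 0.0516 in low gain cows) and SLC19A1 in low gain cows alone (limma adjusted p = 0.332 in high gain cows). SLC46A1 was dim, with group means of 5.26 to 6.47, beside a mean of 6.18 for PHGDH, which limits what its values can show. Thymidylate synthase TYMS, the formyltetrahydrofolate dehydrogenases ALDH1L1 and ALDH1L2 and the mitochondrial folate carrier SLC25A32 were not called in either gain group on the deposited scale (changes of -0.30 to 0.36). After centring TYMS was called higher in both gain groups, ALDH1L1 in high gain cows and ALDH1L2 in low gain cows. The MTHFD2 paralogue MTHFD2L changed by -0.19 (not called) and fell by 0.60, and it was called in neither group on the centred scale. Purine synthesis gave 4 rises and 2 falls of 11 genes in high gain and 2 and 2 in low gain cows (centred, 5 and 0, and 5 and 1), and GART, a folate-dependent step, rose by 0.84 and 0.50. The mean deposited signal of PPAT went down, from 9.721 to 9.195 in high gain and from 9.869 to 8.957 in low gain cows. In high gain cows PPAT was not called lower after centring, as 0 genes of this list were. That of PRPS2 went from 8.693 to 9.385 in high gain and from 9.069 to 8.866 in low gain cows, but the difference between these changes was not called on either scale.

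Glycine can also come from threonine, and TDH, the threonine dehydrogenase, rose most of the genes named in this account. It ran from 7.63 to 10.41 at restriction and from 12.58 to 14.65 at ad libitum feeding in high gain cows, and from 8.56 to 9.67 and 10.97 to 14.50 in low gain cows. The change was 4.72 ± 0.53 (limma adjusted p = 0.000269) and 3.80 ± 0.42 (limma adjusted p = 0.000265). Of the 12 genes of glycine handling 5 rose and 4 fell in high gain cows and 5 rose and 5 fell in low gain cows (centred, 5 and 4, and 5 and 3). DLD, a subunit of the glycine cleavage system and of other dehydrogenases, rose by 1.56 and 0.82, GATM, which uses glycine in creatine synthesis, fell by 2.19 and 1.95, and the glycine decarboxylase GLDC changed by -0.12 (not called) and fell by 0.40 as deposited, whereas its centred changes were 0.29 and 0.06, neither of which was called. In the methionine cycle and transsulfuration 3 of 12 genes rose and 7 fell in high gain cows and 1 rose and 5 fell in low gain cows as deposited, and after centring 3 rose and 2 fell, and 2 rose and 1 fell. Since 53.1% and 54.3% of all clusters fell as deposited, those falls do not set this list apart. AHCY, which hydrolyses S-adenosylhomocysteine, rose by 1.50 and 1.20, MAT1A fell by 0.94 and 0.95, and the serine-using CBS rose by 0.64 in high gain cows (0.18, limma adjusted p = 0.213, in low gain cows, called on the centred scale at 0.64).

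ATF4 itself rose, from 13.64 to 14.89 at restriction to 14.70 to 15.66 at ad libitum feeding in high gain and from 13.45 to 14.13 to 14.36 to 15.40 in low gain cows. The change was 1.12 ± 0.23 (limma adjusted p = 0.00371) and 1.04 ± 0.16 (limma adjusted p = 0.000774). The list of ATF4 and its targets was mixed, with 3 of 23 genes higher and 16 lower in high gain and 4 higher and 11 lower in low gain cows, and on the centred scale 3 higher and 5 lower, and 5 and 5. As deposited, 53.1% and 54.3% of all clusters were lower. ATF5 rose by 3.08 and 3.57 and PCK2, the mitochondrial phosphoenolpyruvate carboxykinase, by 3.52 and 2.09, while EIF4EBP1, a repressor of translation, fell by 1.36 and 0.97. MYC, another regulator of serine and one-carbon genes in mammalian cells, fell by 2.03 and 0.82 on the deposited scale, and on the centred scale it was not called in low gain cows (-0.36, limma adjusted p = 0.105). Of 15 cytosolic aminoacyl-tRNA synthetases, 4 rose and 2 fell in each gain group (centred, 5 and 0 in high gain, 7 and 0 in low gain cows), with AARS higher by 1.05 and 1.16, QARS by 0.62 and 0.55 and CARS lower by 0.66 and 0.55 (on the centred scale CARS was not called, limma adjusted p = 0.183 and 0.688). For the gain comparisons and the difference of changes 0 genes of any of the 9 lists passed.

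**Figure D4:**
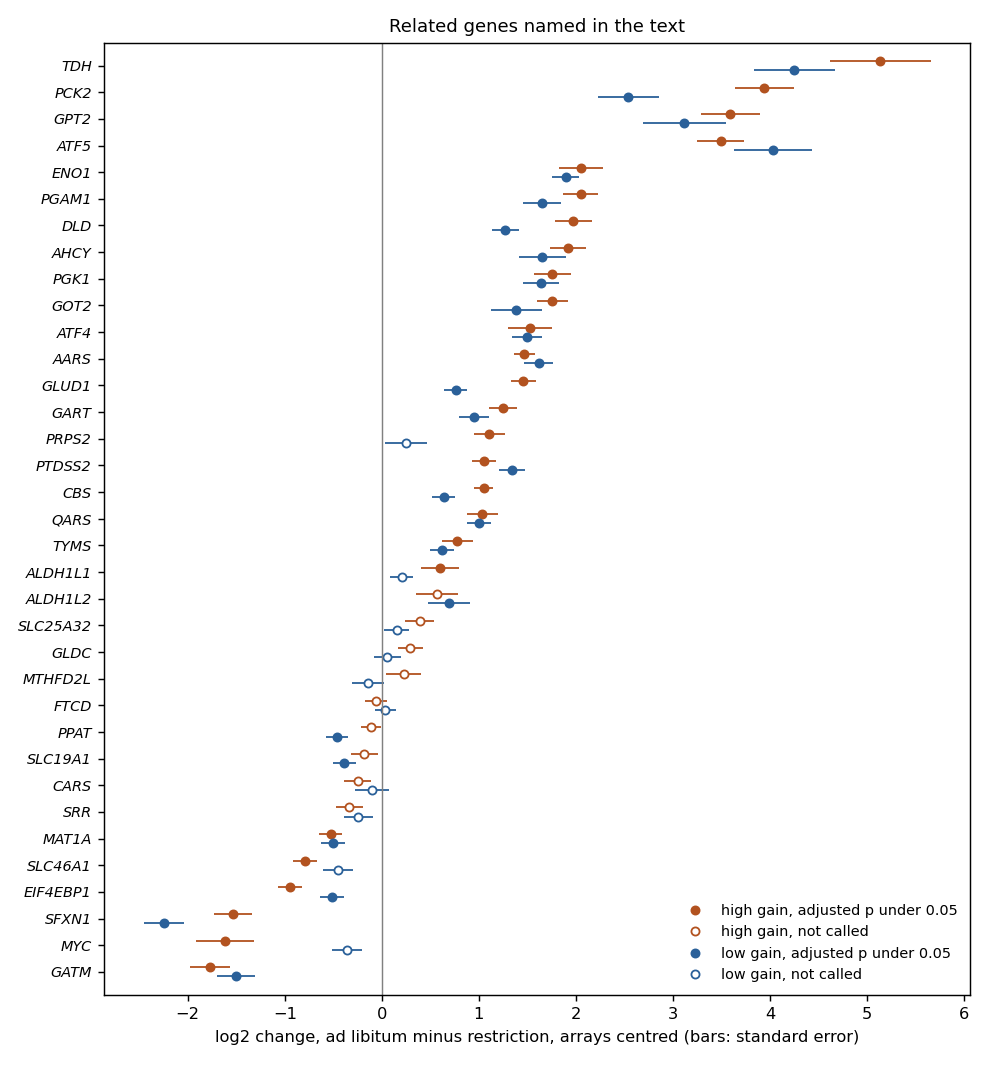
Change of the related genes from restriction to ad libitum feeding (horizontal axis, log2 ad libitum minus restriction, arrays centred on their medians), sorted by the high gain value. Points are limma estimates from 6 cows in the high gain (orange) and low gain group (blue), bars are standard errors and filled points have an adjusted p under 0.05. TDH, PCK2, GPT2 and ATF5 lie far to the right, and SFXN1 and GATM lie at the left end in both gain groups.

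Markers of cell types moved with the diets as well. Beside them, 7.36% of all clusters rose and 53.1% fell in high gain cows as deposited, and 6.28% and 54.3% in low gain cows. After centring these shares were 18.8% and 16.5% in high gain cows, and 18.6% and 13.1% in low gain cows. Of 6 fibroblast and progenitor genes 5 rose in each gain group on both scales, and their mean signal per array was 14.01 to 15.70 at restriction and 15.41 to 17.07 at ad libitum feeding in high gain cows, and 13.51 to 15.04 and 14.36 to 16.68 in low gain cows. Of 10 adipocyte genes 3 rose and 2 fell in high gain and 4 rose and 1 fell in low gain cows as deposited, and after centring 7 rose and 1 fell, and 8 rose and 0 fell. Their centred array means were 15.90 to 16.62 at restriction and 16.46 to 17.12 at ad libitum feeding in high gain cows, and 16.01 to 16.66 and 16.74 to 17.23 in low gain cows. Adipocyte markers were thus called higher in most cases on the scale on which 7 of 9 enzymes were. However, ADIPOQ, FABP4 and CIDEC lay at or near the upper end of the scale. In high gain cows FABP4 had deposited medians of 19.91 at restriction and 19.93 at ad libitum feeding. Centring moves such a signal upward with its array, so centred calls and array means that include these genes do not show a rise of them. The fibroblast gene DCN also reached 19.93, the end of the scale, and LPL had ad libitum medians of 19.68 in both gain groups. Both were called higher as deposited in high gain cows, but their centred values carry the same limit. Of 6 endothelial genes 4 fell in high gain cows (2 after centring), and in low gain cows 2 rose and 1 fell (2 and 0 after centring). Of 7 macrophage genes 0 rose and 3 fell in high gain cows and 2 rose and 1 fell in low gain cows as deposited, but after centring 2 and 3 rose and 0 fell. Of 7 proliferation genes 2 rose and 1 fell in high gain cows and 5 fell in low gain cows as deposited, and after centring 3 rose in high gain cows and 0 were called in low gain cows. Of 4 T cell, 6 skeletal muscle, 3 smooth muscle and 4 epidermis genes, centring left 0 called in high gain cows, and in low gain cows 1 T cell gene lower and 1 smooth muscle and 1 epidermis gene higher. T cell, skeletal muscle and epidermis markers had deposited array means of at most 8.52, and smooth muscle markers of 9.29 to 11.92. The methods of the study also give a lower mean RNA integrity at restriction. The part of cell composition and of RNA integrity in the changes of the 9 enzymes was not tested.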

How the data were processed

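The deposited values are log2 signals that the authors made from Affymetrix scans in Affymetrix Expression Console, with normalization for probe GC content, signal space transformation, which stretches the range of intensities and so of fold changes, and robust multichip averaging; the authors tested in Transcriptome Analysis Console. Versions, the genome build of the array and whether both diets were normalized together are not given in the sources used here, so no coordinates are printed. The table holds 26773 clusters; 1776 control clusters without annotation were left out. Of the 24997 tested, 18790 carry 1 gene symbol, 385 several and 5822 none in the platform annotation. Arrays numbered 1 and 2 in the sample titles are the restriction and ad libitum biopsies; group means were nearer to the study's tabulated means as mapped in 1998 of 1998 clusters in both gain groups.

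Changes between diets were fitted in limma 3.58.1 under R 4.3.3 with lmFit and eBayes as two-sided tests, on the 12 arrays of a gain group and with the cow as a block. Gain groups were compared at each diet without a block, and the difference of changes on 24 arrays with the block. P was adjusted by Benjamini-Hochberg over 24997 clusters, and the script was tested on simulated data. The arrays of a cow come from 1 animal; their deviations from group means correlated at a median of 0.185 (0.101 to 0.339) in high gain and 0.102 (0.0291 to 0.294) in low gain cows, against -0.0505 and -0.0249 between cows. The number of arrays, 6 a group with no technical repeats, limits the precision. Alternatives were median centring, quantile and cyclic loess normalization, no block, all 24 arrays in 1 fit, dim clusters left out, array weights, a trended prior with robust estimation, the omission of each cow and the study's own threshold.

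The 9 enzymes, the 9 lists of related genes and the marker lists were chosen with earlier results of these data known. Named related genes are the 3 per list whose p for diet was smallest in high gain cows and 12 regulators and enzymes taken whatever their values; genes most alike have the highest Pearson r over 24 centred arrays. No sequences are printed.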

Additional observations from a re-analysis of the deposited data

Results flagged for a closer look

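Within the 36 groups of 6 arrays formed by the 9 enzymes, 4 held a value whose gap to its nearest neighbour was large for the range of the group by Dixon's criterion, which chance gives in about 1 of 20 groups. All 4 lie in the high gain cows. MTHFD1L had the most isolated value, 10.72 in cow H2 at restriction, and at ad libitum feeding cow H5 was lowest at 6.65. SHMT2 was lowest in cow H5 at ad libitum feeding, at 9.80, and PHGDH was highest in cow H1 at restriction, at 6.83. H5 also had the lowest PSPH of the high gain cows at both diets, 7.43 and 7.96, and was the only high gain cow in which PSAT1 and SHMT1 were lower at ad libitum feeding. What these arrays share was not tested.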

How the results depend on the processing

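The 2 scales gave different counts between diets. In high gain cows 1839 clusters were higher and 13261 lower as deposited, against 4705 and 4130 after centring, 4206 and 4406 after quantile and 4395 and 4271 after cyclic loess normalization. In low gain cows 1569 and 13564 became 4645 and 3285, 3663 and 3709, and 3902 and 3671. The enzymes called higher went from 4 to 7 in each gain group after centring, and to 6 in each after quantile or cyclic loess normalization. On centred arrays with each cow left out in turn they numbered 5 to 7 in each gain group. The 1 enzyme called lower, PHGDH, went to 0 after centring, quantile or loess normalization. It also did so when dim clusters, PHGDH among them, were left out. Since the study's threshold adds a fold over 2 to an unadjusted p, it left 633 clusters higher and 2382 lower in high gain and 436 and 2078 in low gain cows, with 2 and 0 enzymes higher and 0 lower. With that threshold on centred arrays, added after seeing the data, 1283 were higher and 534 lower in high gain and 1156 and 283 in low gain cows, with 3 enzymes higher and 0 lower in each. The study itself reports more genes up than down between diets in both gain groups. The centred counts run in that direction and the deposited counts do not. In size, however, the study's counts are nearer to the deposited counts at its threshold with the directions exchanged. The reason for this was not tested. At the study's threshold on deposited values the gain groups differed in 74 clusters higher and 97 lower at restriction, 1 of the latter an enzyme (PSPH), and in 44 and 31 at ad libitum feeding. Beside 0 clusters, the fit of all 24 arrays called 1 lower in high gain cows under restriction and 1 in each direction once fed ad libitum, while under restriction 1 was lower without dim clusters, 2 with a trended prior and 1 with array weights. The 2 clusters with a smaller change in high gain cows became 5 after centring, 0 with a trended prior and 1 with array weights.

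Without the cow as a block, that is without the pairing, the calls of PSAT1 in high gain (limma adjusted p = 0.109) and SHMT2 in low gain cows (limma adjusted p = 0.0665) were lost, no other deposited call of an enzyme changed, and the difference of changes gave 0 clusters. On centred arrays without the block 4481 clusters were higher and 4028 lower in high gain and 4643 and 3510 in low gain cows, 5 and 6 enzymes were higher in place of 7, since SHMT2 and MTHFD2 in high gain and PSPH in low gain cows were lost, 0 enzymes were lower and 0 clusters had a smaller change. The fit of all 24 arrays also lost PSAT1 in high gain cows (limma adjusted p = 0.0745). MTHFD1 and ASNS stayed called higher in both gain groups under every setting that kept the adjusted p threshold.

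With each cow left out in turn, enzymes called lower in high gain cows numbered 0 to 1 and enzymes called higher in low gain cows 2 to 4. Clusters lower in high gain cows numbered 0 to 2 under restriction, 0 to 1 when fed ad libitum and 0 to 4 in the difference of changes, and 2091 to 3093 between diets in low gain cows on centred arrays. Directions that turned belonged to values not called. In the change between diets they were MTHFD2 in low gain cows (-0.20 to 0.19) and, centred in high gain cows, PHGDH (-0.22 to 0.004) and MTHFD1L (-0.41 to 0.30). At restriction they were PSAT1 (-0.074 to 0.14), SHMT2 (-0.044 to 0.19), MTHFD1 (-0.13 to 0.077), MTHFD2 (-0.10 to 0.21), MTHFD1L (-0.033 to 0.69) and ASNS (-0.15 to 0.09), where array weights also turned PSAT1 (-0.015) and MTHFD1 (0.029). At ad libitum feeding they were PHGDH (-0.085 to 0.13), PSAT1 (-0.10 to 0.24), PSPH (-0.26 to 0.75) and MTHFD1 (-0.34 to 0.004), and in the difference of changes PHGDH (-0.014 to 0.21), PSAT1 (-0.16 to 0.16) and MTHFD2 (-0.01 to 0.40). The cause of these changes was not tested. PHGDH is among the dimmest clusters, which limits what its values can show, and 6 arrays a group limit every interval.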
